A study of Mus musculus with 8 samples.

Results

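Imprinted genes are expressed mainly from the copy inherited from the mother or mainly from that inherited from the father, and many of them set how far an embryo and its organs grow. A group of 9, named by gene symbol, is described here: Plagl1, Peg10, Peg3, Mest, Dlk1, Ndn and Sgce, known as paternally expressed, and Cdkn1c and Grb10, known as maternally expressed in most mouse tissues. All 9 had 1 transcript cluster each among the 19505 gene symbols on the array. They were chosen by their log2 differences between arrays of the same fibroblast set, known from earlier work on these arrays, so those differences are a description and carry no test.

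RNA came from mouse postnatal tail-tip fibroblasts (TTFs) on Clariom S Mouse arrays, 1 array per sample and 8 arrays in all. Every sample, the controls included, was transduced with the retroviral factor mixture GHMT (Gata4, Hand2, Mef2c, Tbx5), which turns a share of fibroblasts into cardiomyocyte-like cells, and the arrays read the mixed culture. DMSO or a drug was added together with the virus. TTF set 1 held GHMT with no drug named, GHMT with diclofenac (a blocker of the cyclooxygenases that make prostaglandins), GHMT with an antagonist of the prostaglandin E2 receptor EP4, and GHMT with diclofenac plus prostaglandin E2 (PGE2). TTF set 2 held GHMT with no drug named, GHMT with the EP4 antagonist, GHMT with a TGFb inhibitor and GHMT with a Wnt inhibitor. Only GHMT and the EP4 antagonist were thus measured in both sets (n = 2); the other 4 groups had 1 array each, with no replicate check. No untransduced cells were analysed here, and the sources used here give no dose or harvest time. In bulk cultures, fewer cells of a type and less RNA per cell cannot be told apart.

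Values are log2 expression levels, so a difference of 1 is 2-fold. An array's background level, set at percentile 95 of the 23 probe sets without a target, was 5.73 to 5.99; between 43.7% and 45.7% of the 22206 transcript clusters exceeded it. All 5 measured fibroblast markers (Col1a1, Col1a2, Thy1, Vim, Lum) were above background in every array. Of 17 measured markers of leukocytes, endothelium, keratinocytes, skeletal myoblasts, adipocytes and Schwann cells, 16 were at background in all 8 arrays; the exception was Cebpa.

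Promoter sequence from RefSeq (GRCm38.p6) was used for 6 of the 9 genes, namely Plagl1, Peg3, Mest, Dlk1, Ndn and Grb10; the promoters of Peg10, Sgce and Cdkn1c were not analysed here. The 4 shown are those of the matched genes that were at least 2-fold apart from GHMT in some treatment, each as the 250 bases before an annotated start, 5′ to 3′ on the gene's strand. Capitals mark GGGGCCCC, a sequence the Plagl1 protein is known to bind, and TGACG, the short form of the cAMP response element (CRE, in full TGACGTCA), to which CREB binds below PGE2 receptors that raise cAMP.
Plagl1, chr10:13090582-13090831, plus strand: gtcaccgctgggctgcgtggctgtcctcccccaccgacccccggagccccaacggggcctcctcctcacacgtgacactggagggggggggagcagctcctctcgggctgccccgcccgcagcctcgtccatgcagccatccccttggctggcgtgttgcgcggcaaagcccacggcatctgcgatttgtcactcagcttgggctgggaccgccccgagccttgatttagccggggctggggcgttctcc
Peg3, chr7:6730420-6730669, minus strand: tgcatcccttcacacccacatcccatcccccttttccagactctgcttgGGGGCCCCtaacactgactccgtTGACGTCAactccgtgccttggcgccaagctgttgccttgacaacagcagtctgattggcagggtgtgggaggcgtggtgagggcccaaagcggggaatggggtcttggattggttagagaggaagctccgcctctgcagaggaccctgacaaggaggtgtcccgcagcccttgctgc
Dlk1, chr12:109452573-109452822, plus strand: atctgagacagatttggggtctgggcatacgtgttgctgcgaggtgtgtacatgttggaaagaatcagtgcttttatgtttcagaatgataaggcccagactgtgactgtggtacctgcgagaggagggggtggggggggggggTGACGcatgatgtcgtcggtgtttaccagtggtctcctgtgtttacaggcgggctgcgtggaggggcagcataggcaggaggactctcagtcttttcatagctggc
Mest, chr6:30737800-30738049, plus strand, 1 of 3 annotated starts: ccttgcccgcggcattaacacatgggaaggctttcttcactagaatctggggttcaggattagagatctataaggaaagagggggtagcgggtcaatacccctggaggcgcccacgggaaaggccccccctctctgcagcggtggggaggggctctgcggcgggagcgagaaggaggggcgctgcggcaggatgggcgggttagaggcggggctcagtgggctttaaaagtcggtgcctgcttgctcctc

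The Peg3 window held GGGGCCCC, its first base 201 bases before the start, and a full TGACGTCA 178 bases before the start, which contains TGACG on both strands. Of all 32851 windows of this length, 0.889% held GGGGCCCC, 1.55% held TGACGTCA and 17.8% held TGACG on either strand. The Dlk1 window held TGACG 106 bases before the start, and 1 of 2 Grb10 windows held it as well. None of these motifs was found in the windows of Plagl1, Mest or Ndn. The TCF/LEF motif CTTTGAT, the end point of Wnt signalling (3.21% of all windows), and the YY1 motif GCCATNTT (3.91%) were found in none of the 9 windows of the 6 matched genes. Peg10, Sgce and Cdkn1c had no window, so this does not cover them. CpG dinucleotides, the sites of DNA methylation, numbered 19 in the Plagl1 window, 14 in that of Mest, 8 in Peg3 and in Dlk1, 5 in Ndn and 40 in the more CpG-rich Grb10 window. The median window held 6. Methylation itself was not measured. A match describes letters and does not show that a factor binds there.

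**Figure D1:**
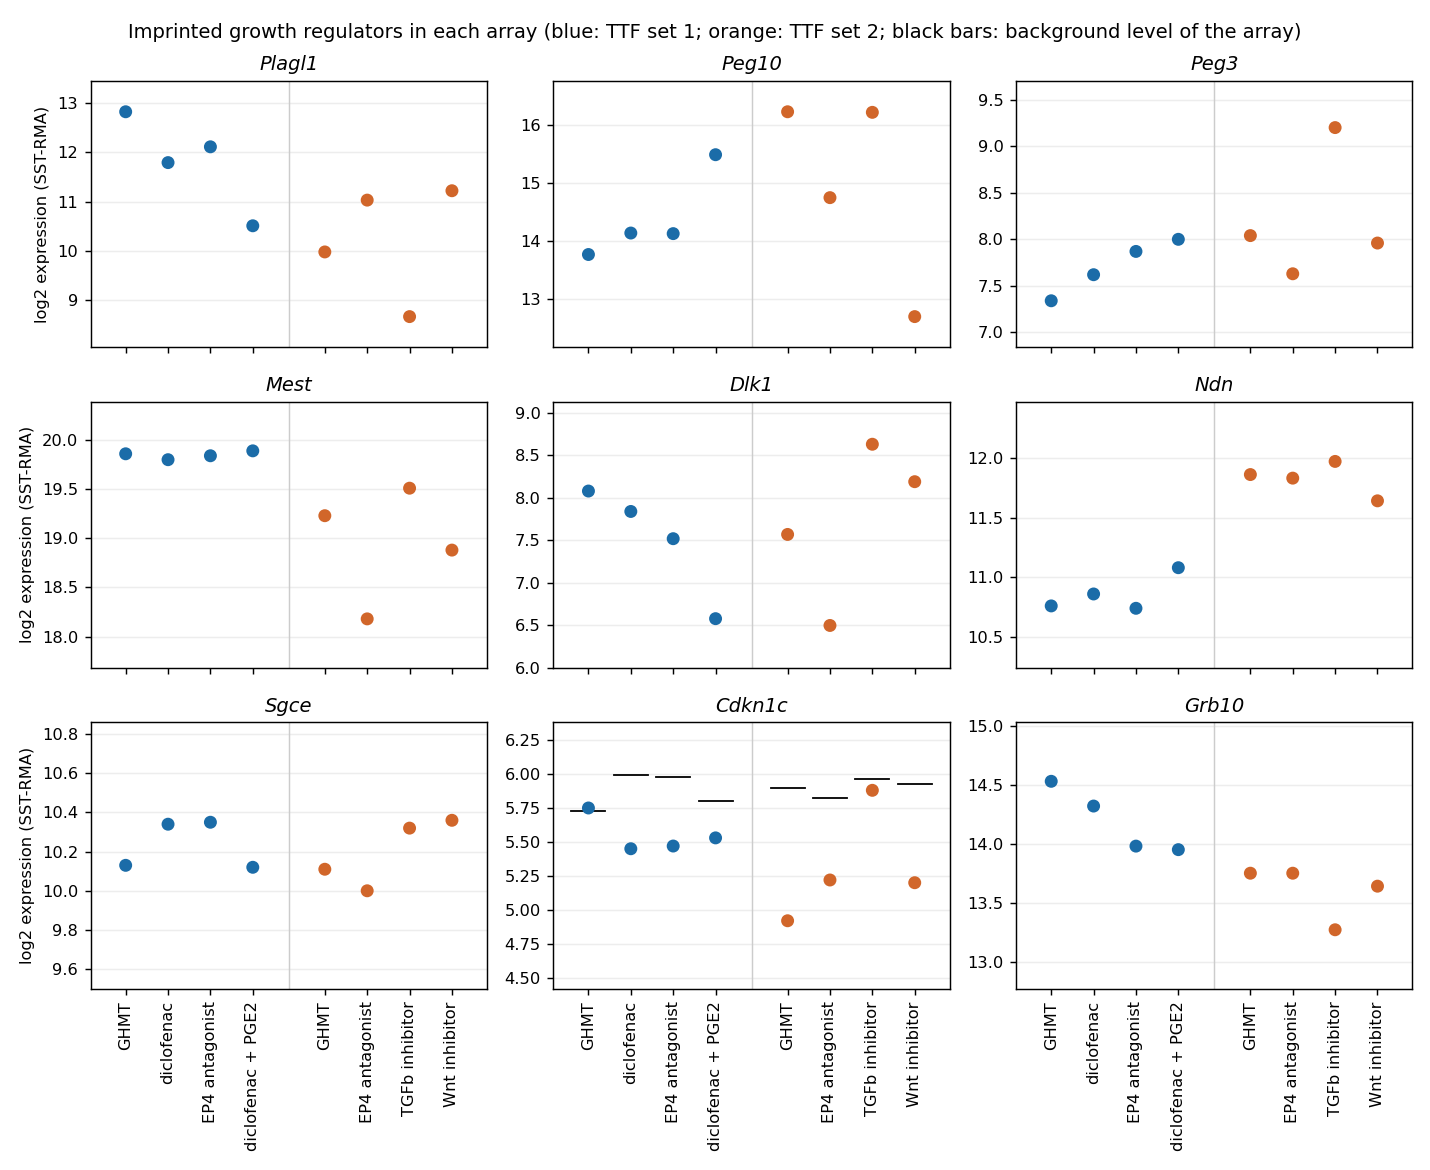
Log2 expression (y axis, a separate range for each gene) of the 9 genes in each of the 8 arrays; each point is 1 array, blue for TTF set 1 and orange for TTF set 2, and black bars mark the background level. Plagl1, Peg10 and Dlk1 spread widely within a set, Mest is flat in set 1 between 19.80 and 19.89, and Cdkn1c lies at or near background.

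Plagl1 encodes a zinc finger transcription factor that restrains cell division and regulates other imprinted genes. In set 1 it was at 12.82 with GHMT, 11.79 with diclofenac, 12.11 with the EP4 antagonist and 10.51 with diclofenac plus PGE2. In set 2 it was at 9.98 with GHMT, 11.03 with the EP4 antagonist, 8.67 with the TGFb inhibitor and 11.22 with the Wnt inhibitor. All 3 treatments of set 1 thus lay below GHMT, while in set 2 only the TGFb inhibitor did. Against GHMT of its set, Plagl1 was 4.96-fold lower with diclofenac plus PGE2 (-2.31), 2.48-fold lower with the TGFb inhibitor (-1.31) and 2.04-fold lower with diclofenac (-1.03). It was 2.07-fold higher with the EP4 antagonist of set 2 (1.05) and 2.36-fold higher with the Wnt inhibitor (1.24). The EP4 antagonist of set 1 had the opposite sign (-0.71).

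Peg3, a large zinc finger gene tied to body growth and maternal care, went the other way in most cultures. Its levels in set 1 were 7.34 with GHMT, 7.62 with diclofenac, 7.87 with the EP4 antagonist and 8.00 with diclofenac plus PGE2. In set 2 they were 8.04, 7.63 with the EP4 antagonist, 9.20 with the TGFb inhibitor and 7.96 with the Wnt inhibitor. The TGFb inhibitor array stood highest, 2.23-fold above its GHMT array (1.16). The array with the lowest Plagl1 level in each set, diclofenac plus PGE2 in set 1 and the TGFb inhibitor in set 2, was also the array with the highest Peg3 level of that set. After the mean of each set was subtracted, Pearson's r between the genes was -0.86 over the 8 arrays, which share the fibroblasts of their set.

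Peg10, a gene derived from a retrotransposon and needed to form the placenta, had the widest range within a set, in set 2. In set 1 it was at 13.76 with GHMT, 14.13 with diclofenac, 14.12 with the EP4 antagonist and 15.48 with diclofenac plus PGE2. In set 2 it was at 16.22 with GHMT, 14.74 with the EP4 antagonist, 16.21 with the TGFb inhibitor and 12.69 with the Wnt inhibitor. The array with PGE2 stood above the other 3 of set 1, and the Wnt inhibitor array was the lowest of all 8. Peg10 was 11.6-fold lower with the Wnt inhibitor than with GHMT (-3.53), a distance that 0.108% of all transcript clusters reached or passed in that contrast. It was 2.79-fold lower with the EP4 antagonist of set 2 (-1.48) and 3.29-fold higher with diclofenac plus PGE2 (1.72), or 2.55-fold against diclofenac alone (1.35). Peg10 and Plagl1 ran opposite to each other (r = -0.82 over 8 set-centred arrays): Plagl1 was highest with GHMT in set 1 and with the Wnt inhibitor in set 2, the arrays in which Peg10 was lowest. Of clusters above background in at least 1 array, 1.95% had an r with Plagl1 as low. Among the 36 pairs of the 9 genes, the lowest r was that of Plagl1 and Ndn (-0.89), but Ndn spanned only 0.4 over the set-centred arrays. The r values between the 9 genes rest on the values by which they were chosen and carry no test.

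Sgce, the gene of epsilon-sarcoglycan in the cell membrane, is the direct neighbour of Peg10 in the GRCm38.p6 annotation and belongs to the same imprinted domain. It kept between 10.12 and 10.35 in set 1 and between 10.00 and 10.36 in set 2. Its difference from GHMT was 0.25 with the Wnt inhibitor, where Peg10 was at -3.53, and -0.01 with diclofenac plus PGE2, where Peg10 was at 1.72. Sgce thus stayed nearly flat where Peg10 moved. As Sgce spanned only 0.36 over the 8 set-centred arrays, its r with Peg10 (-0.34) says little.

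**Figure D2:**
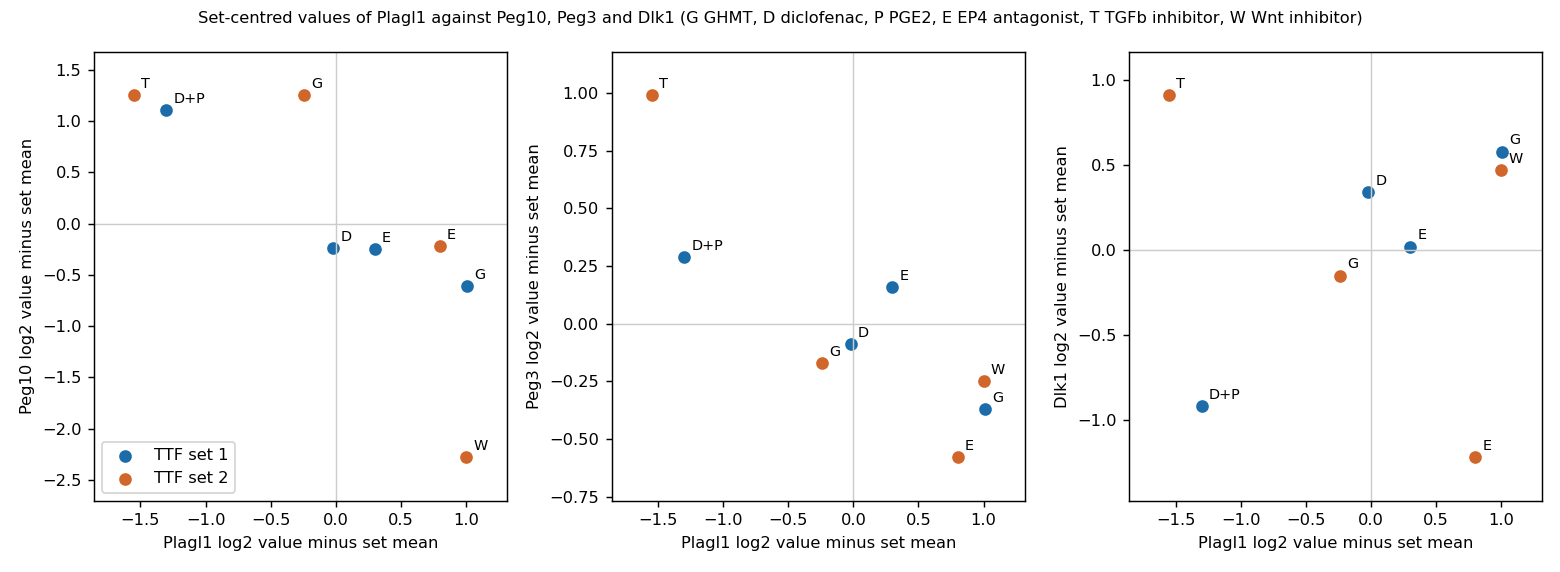
Log2 value minus the mean of the 4 arrays of its TTF set for Plagl1 (x axis) against Peg10, Peg3 and Dlk1 (y axes), 1 point per array and letters for the treatment. Peg10 and Peg3 fall from upper left to lower right, while Dlk1 has points in all directions: with diclofenac plus PGE2 both Plagl1 (-1.30) and Dlk1 (-0.92) are low, and with the TGFb inhibitor Plagl1 (-1.55) is low and Dlk1 (0.91) high.

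Dlk1 encodes a membrane protein with EGF-like repeats that resembles Notch ligands and holds back the formation of fat cells. Its levels in set 1 were 8.08 with GHMT, 7.84 with diclofenac, 7.52 with the EP4 antagonist and 6.58 with diclofenac plus PGE2. In set 2 they were 7.57 with GHMT, 6.50 with the EP4 antagonist, 8.63 with the TGFb inhibitor and 8.19 with the Wnt inhibitor. Both EP4 antagonist arrays lay below their GHMT arrays, by -0.56 and -1.07, a mean of -0.81 (n = 2, set as a block). The SE of the limma fit was 0.22. It borrows spread from all clusters and is not the SE of the 2 differences alone. Diclofenac plus PGE2 was lower still in set 1, 2.83-fold below GHMT (-1.50), and the TGFb inhibitor was 2.08-fold above GHMT (1.06). Of the adipocyte markers, Adipoq and Plin1 were at background in all 8 arrays. Cebpa was at 5.93 to 6.12 in set 1. In set 2 it was at 6.84 with GHMT, 6.52 with the EP4 antagonist, 7.54 with the TGFb inhibitor and 8.08 with the Wnt inhibitor. The part of these markers in the Dlk1 difference was not tested. Between Plagl1 and Dlk1, r was -0.02 over the 8 set-centred arrays.

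Mest, which encodes a hydrolase-like protein tied to embryonic growth and fat expansion, was at 19.86, 19.80, 19.84 and 19.89 in the GHMT, diclofenac, EP4 antagonist and diclofenac plus PGE2 arrays of set 1. In set 2 it was at 19.23 with GHMT, 18.18 with the EP4 antagonist, 19.51 with the TGFb inhibitor and 18.88 with the Wnt inhibitor. Set 1 was flat and set 2 was spread, with the EP4 antagonist 2.07-fold below GHMT (-1.05). In set 1 the Mest value lay 0.04 to 0.12 below the highest cluster of the array (19.90 to 19.93); saturation was not tested. In set 2 it lay 0.31 to 1.64 below the highest cluster.

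Among the growth brakes, Grb10 and Ndn varied little. Grb10, an adaptor that dampens insulin and IGF receptor signalling, was at 14.53 with GHMT, 14.32 with diclofenac, 13.98 with the EP4 antagonist and 13.95 with diclofenac plus PGE2 in set 1, and at 13.75, 13.75, 13.27 and 13.64 with GHMT, the EP4 antagonist, the TGFb inhibitor and the Wnt inhibitor in set 2. The treated arrays lay at or below GHMT of their set, by -0.58 to 0.00. Ndn, the gene of necdin, a growth suppressor of the MAGE family, spanned 10.74 to 11.08 in set 1 and 11.64 to 11.97 in set 2. Its differences from GHMT were small, from -0.22 to 0.32. Set-centred levels of Ndn and Peg10 had an r of 0.86 over the 8 arrays, although with the EP4 antagonist of set 2 Ndn was at -0.03 where Peg10 was at -1.48. Cdkn1c, the gene of the cyclin-dependent kinase inhibitor p57, spanned 4.92 to 5.88 and was above the background level in 1 of 8 arrays, GHMT of set 1 (5.75 against 5.73), so no fold is given for it.

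**Figure D3:**
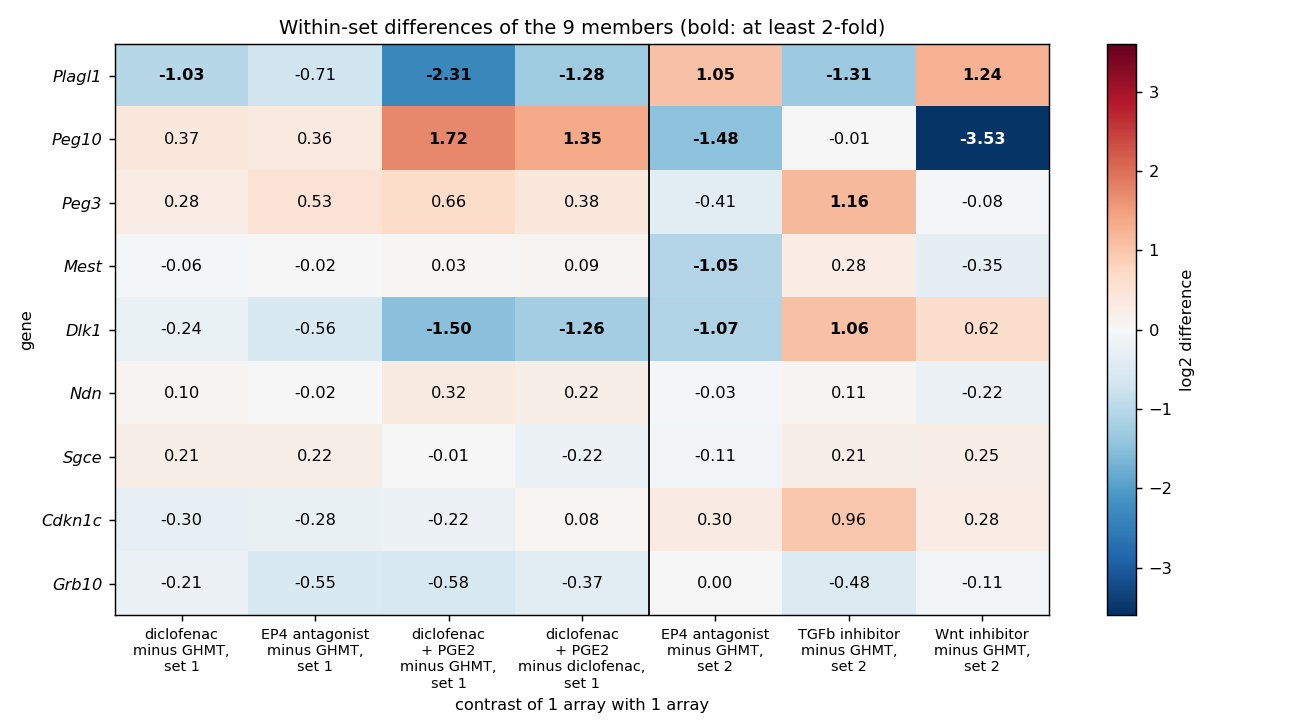
Log2 differences of the 9 genes (rows) in 7 contrasts of 1 array with 1 array of the same TTF set (columns, split by set), coloured from blue (lower) to red (higher), with bold numbers at 2-fold or more. Plagl1 and Peg10 take opposite signs in 6 of 7 columns, and Ndn, Sgce, Cdkn1c and Grb10 have no bold value.

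Counted by treatment, with the share of all transcript clusters that were at least 2-fold apart beside each count, 1 of 9 genes was so far from GHMT with diclofenac (1.81% of all clusters), 0 of 9 with the EP4 antagonist of set 1 (1.6%) and 3 of 9 with diclofenac plus PGE2 (Plagl1, Peg10, Dlk1; 1.81%). The same 3 genes were 2-fold apart between diclofenac plus PGE2 and diclofenac alone (2.16%). In set 2 it was 4 of 9 with the EP4 antagonist (Plagl1, Peg10, Mest, Dlk1; 2.74%), 3 of 9 with the TGFb inhibitor (Plagl1, Peg3, Dlk1; 5.36%) and 2 of 9 with the Wnt inhibitor (Plagl1, Peg10; 4.1%). As these contrasts were known when the genes were chosen, nothing is read from the counts. The contrasts within a set share a GHMT array. Median differences of the 9 genes lay between -0.11 and 0.21 over the 7 contrasts, and those of all clusters between -0.02 and 0.01. The mean of 4 cardiomyocyte markers (Myh6, Actc1, Nppa among them) was 12.34 with GHMT, 14.18 with diclofenac, 13.60 with the EP4 antagonist and 12.32 with diclofenac plus PGE2 in set 1, and 12.12, 13.98, 13.68 and 14.10 with GHMT, the EP4 antagonist, the TGFb inhibitor and the Wnt inhibitor in set 2. The mean of the 5 fibroblast markers was 14.36 to 15.12 in set 1 and 14.19 to 14.81 in set 2. These means pool markers that in some arrays moved apart. With diclofenac plus PGE2, Nppa (1.4) and Tnnt2 (0.46) were above GHMT, while Myh6 (-0.9) and Actc1 (-1.05) were below it. With every other treatment all 4 cardiomyocyte markers were above GHMT of their set. With the TGFb inhibitor, Col1a2 (-2.81) and Col1a1 (-1.48) were below GHMT, while Thy1 (1.23), Lum (0.28) and Vim (0.11) were above it. The part of these markers in the differences of the 9 genes was not tested.

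Blocking EP4 was the treatment measured in both sets. For it, limma called 0 of 22206 clusters (0.0%; 144 at an unadjusted p under 0.05), and 0 with the TTF set as a block (0.0%; 1243 unadjusted); leaving out an array gave 1 to 25 calls, none of the 9 genes. With the block, Plagl1 was at 0.17 ± 0.41 (limma SE), the mean of -0.71 and 1.05, and Peg10 at -0.56 ± 0.43, the mean of 0.36 and -1.48. The limma SE borrows spread from all clusters, so it does not show how far the sets differed for these genes. For Plagl1, Peg10, Peg3 and Sgce the sets had opposite signs. Both differences were negative for Dlk1 (-0.56 and -1.07), Mest (-0.02 and -1.05) and Ndn (-0.02 and -0.03). When diclofenac was added to the inhibited arm and diclofenac plus PGE2 to the active arm (3 arrays each), limma called 0 clusters (0.0%; 469 unadjusted), and 84 with the block (0.378%), 57 higher and 27 lower, none of the 9 genes among them. These arms pool different treatments. Peg10 was at -0.82 ± 0.38 and Plagl1 at 0.54 ± 0.47 with the block. Without GHMT of set 1, the fit with the block called 192 clusters, and without diclofenac it called 2, so these calls turn on single arrays. Without either array of set 2 it called 0. The block then absorbs the lone array left in set 2, so that fit rests on set 1 only. The 192 include Plagl1 (1.27) and Peg10 (-1.41), which were chosen on these same values, so this is no evidence for them.

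Some genes were as far apart between the sets as between treatments. Between the GHMT arrays, Plagl1 was 7.16-fold lower in set 2 (-2.84), Peg10 5.50-fold higher (2.46) and Ndn 2.14-fold higher (1.10), so 3 of 9 were at least 2-fold apart, beside 13.7% of all clusters. Between the EP4 antagonist arrays it was 4 of 9 (12.6% of all clusters): Plagl1 was at -1.08, Mest at -1.66, Dlk1 at -1.02 and Ndn at 1.09. The median cluster was itself at -0.16 in both contrasts. After quantile normalization Ndn was at 0.74 and 0.73, under 2-fold, and Grb10 at -1.08 between the GHMT arrays. After each array was centred on its median, Plagl1 (-0.89) and Dlk1 (-0.83) were under 2-fold between the EP4 antagonist arrays. For Mest, Grb10 and Ndn the 4 arrays of set 1 did not overlap the 4 of set 2, which makes 3 of 9, beside 38.9% of all clusters. Plagl1 spanned 10.51 to 12.82 in set 1 and 8.67 to 11.22 in set 2. The labels number the sets and say no more, so the fibroblasts and anything else that went with a set cannot be told apart.

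For each of the 5 genes that spanned 1 or more after the set mean was subtracted, the 3 genes with the most similar profile were found among 9720 other named genes above background in at least 1 array, by the largest gap in any of the 8 set-centred arrays. For Mest this was Igf2, the imprinted fetal growth factor, with a largest gap of 0.14, then Trio (0.14) and Meis1 (0.18). In set 1 Igf2, at 19.90 to 19.93, was the highest value of every array, so the likeness there is read at the top of the scale, where saturation was not tested. It was at 19.40 with GHMT, 18.43 with the EP4 antagonist, 19.49 with the TGFb inhibitor and 18.93 with the Wnt inhibitor in set 2. For Peg3 the genes were Efemp1, a matrix fibulin (0.22), Car13, a carbonic anhydrase (0.23), and Plcb1, a phospholipase C (0.24). The gaps were wider for Plagl1, with Adamts18 (0.55), Slc7a2 (0.67) and Aspn (0.72), for Dlk1, with Plce1 (0.49), C2 (0.50) and Sp100 (0.53), and for Peg10, with Vnn1 (0.77), Lurap1l (0.87) and Apcdd1 (0.89). Vnn1, C2 and Sp100 were above background in 1 of 8 arrays, Adamts18 and Apcdd1 in 4 and Slc7a2 in 6, so much of their profile is background signal.

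Other imprinted genes were taken from a list of 60, of which 47 were measured, 19 of them at background in all 8 arrays. The list includes genes whose imprinting is mixed or tissue-dependent, among them Dcn, Ampd3, Atp10a, Tssc4 and Pon2. Which copy was expressed in these cultures was not measured. Limma called 0 of the 47 in both comparisons, with and without the set as a block; at an unadjusted p under 0.05 were 3 with the block for the EP4 antagonist and 4 for the inhibited against the active arm, and 0 without it. With at least 1 of the arrays compared above background, 0 were 2-fold from GHMT with diclofenac (1.39% of all clusters by the same rule), 0 with the EP4 antagonist of set 1 (1.24%), and 1 with diclofenac plus PGE2 (Pon2; 1.44%). In set 2 it was 2 with the EP4 antagonist, both lower (1.9% of all clusters), 7 with the TGFb inhibitor, 5 higher and 2 lower (4.33%), and 3 with the Wnt inhibitor, all lower (3.08%). The median of the 47 lay between -0.14 and 0.06 over the contrasts with GHMT.

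Dio3, which encodes a deiodinase that inactivates thyroid hormone, lies in the imprinted domain of Dlk1. It was at background in all 4 arrays of set 1, and in set 2 it was at 7.43 with GHMT, 5.90 with the EP4 antagonist (-1.53), 9.97 with the TGFb inhibitor (2.54) and 5.69, at background, with the Wnt inhibitor, at least 2.83-fold lower. Dlk1 had the same sign with the EP4 antagonist and the TGFb inhibitor of set 2 and the opposite sign with the Wnt inhibitor (0.62). Slc38a4, an amino acid transporter, was at 9.59 to 10.32 in set 1, at 7.62 with GHMT and 7.39 with the EP4 antagonist in set 2, and at background with the TGFb inhibitor (at least 3.16-fold lower) and the Wnt inhibitor (at least 3.23-fold lower). Ampd3, an AMP deaminase, was 2.08 above GHMT with the TGFb inhibitor, at 14.08. Dcn, the matrix proteoglycan decorin, was at -0.72 and -1.70 with the EP4 antagonist in sets 1 and 2, and at 1.15 with the TGFb inhibitor. Pon2 was at 1.16 with diclofenac plus PGE2, 0.91 with diclofenac and 0.72 with the EP4 antagonist of set 1, and between -0.29 and 0.17 in set 2. Tfpi2 was above background in the GHMT (5.93 against 5.9) and EP4 antagonist (6.14 against 5.82) arrays of set 2 and in no other.

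**Figure D4:**
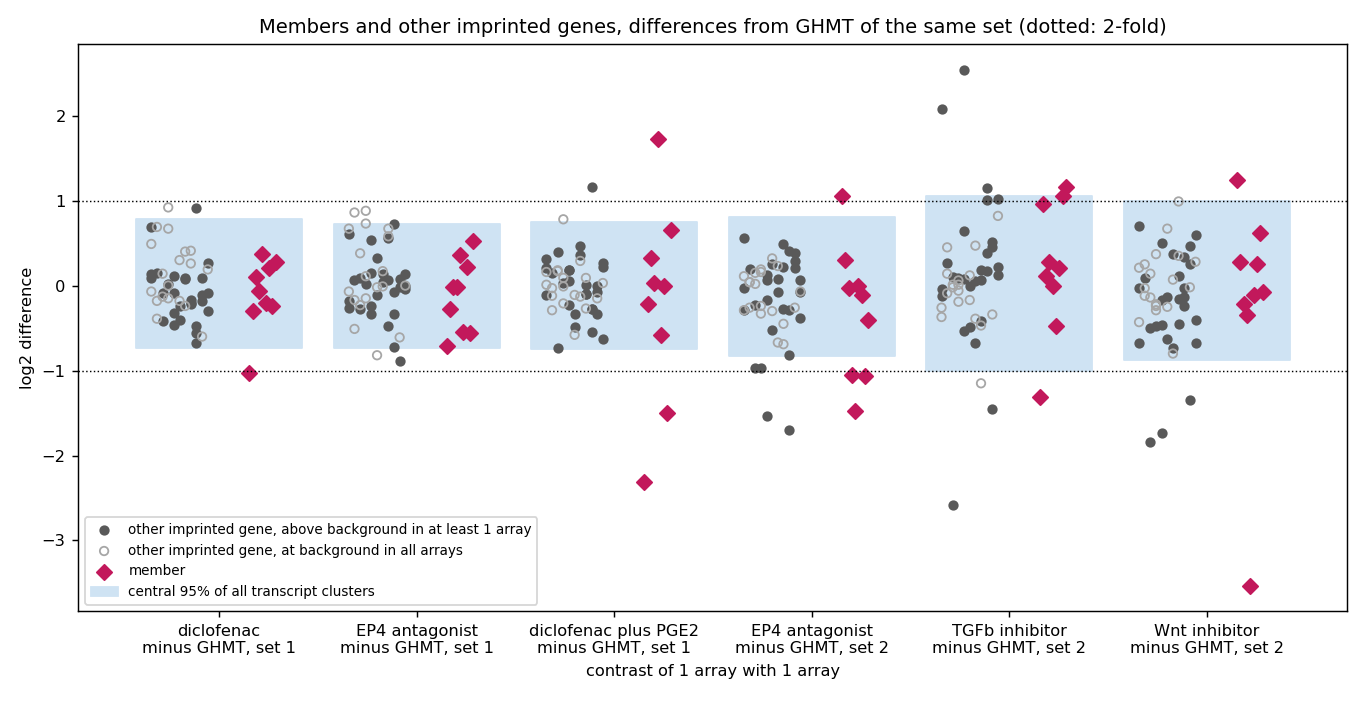
Log2 differences from GHMT of the same TTF set (y axis) for the 9 genes (pink diamonds) and 47 other imprinted genes (grey circles, open where at background in all arrays) in 6 contrasts of 1 array with 1 array; the blue band holds the central 95% of all transcript clusters and dotted lines mark 2-fold. Dio3 (2.54) and Ampd3 (2.08) lie high with the TGFb inhibitor; the lowest filled circle there is Slc38a4, whose level was at background, so its position is not an exact difference.

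Genes that act with these regulators in growth control were taken from a list of 23, of which 21 were measured. Limma called 0 of them in either comparison, with or without the block (2 and 5 at an unadjusted p under 0.05 for the EP4 antagonist, 6 and 9 for the inhibited against the active arm). Irs1, an adaptor of the insulin and IGF receptors that Grb10 dampens, was at 7.21 with GHMT and 8.66 with the EP4 antagonist in set 2 (1.45), and at 0.18 in set 1. Cdkn1b, the gene of p27, a relative of Cdkn1c, was at -1.55 and -0.63 in the same contrasts. Ccna2, the cyclin of S phase, was at -1.61 with the TGFb inhibitor, where Plagl1 was lowest, and at -1.42 with the Wnt inhibitor, where Plagl1 was highest in its set. Pparg, the master regulator of fat cells that Dlk1 opposes, was above background in the TGFb inhibitor (6.85) and Wnt inhibitor (7.12) arrays and at background in the other 6. Sox9, which Dlk1 is known to act through in preadipocytes, was at -0.86 and -1.80 with the EP4 antagonist in sets 1 and 2, at -1.46 with the TGFb inhibitor and at 1.18 with the Wnt inhibitor. Adcyap1r1, a receptor gene that Plagl1 is known to induce, was barely above background in the TGFb inhibitor array (6.02 against 5.96) and at background in the others.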

How the data were processed

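The authors deposited log2 expression values, normalized with SST-RMA in Affymetrix Expression Console 1.4 per the submitters' processing notes and design text; for the genome build, filters and whether the TTF sets were normalized together, the answer is "not given in the sources used here". Of 28846 deposited values per array, 6640 belong to control probe sets and 22206 to transcript clusters, of which 19572 have 1 gene symbol in the platform annotation and 2634 none. The cluster with the highest mean was used per symbol.

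The genes and lists were chosen with earlier results of these data known. The background level was defined after the values were seen. The 9 genes are all named; per list, up to 6 genes above background with the largest difference from GHMT are named. Within-set differences are 1 array minus 1 array. Comparisons over both sets used limma 3.58.1 in R 4.3.3 (lmFit and eBayes, two-sided, Benjamini-Hochberg adjusted p under 0.05 over all clusters), fitted first without a block and then with the TTF set as one. A check on simulated data used the layout of the inhibited against the active arm, with large changes. Only its fit with the block had to pass. The layout of the EP4 antagonist against GHMT was not simulated. The set number in the titles is attached to the fibroblasts, and GHMT and EP4 antagonist arrays of a set deviated together from their group means across clusters (r = 0.724), so it was taken as a pairing. Separate cultures or animals are not stated, so the p-values reflect only the variation among these arrays, which may be technical. The number of arrays limits the precision. Alternatives were quantile normalization, median centring, a trend and robust prior, a background filter, a 1.5-fold mark and leaving out each array.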

Additional observations from a re-analysis of the deposited data

Results flagged for a closer look

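For Plagl1, Peg10, Peg3 and Sgce the EP4 antagonist array lay on one side of GHMT in set 1 and on the other in set 2, 1 array against 1 in each set, and the difference between the sets was not tested. The difference of set 2 minus that of set 1 was 1.76 for Plagl1 (-0.71 and 1.05), -1.84 for Peg10 (0.36 and -1.48), -0.94 for Peg3 (0.53 and -0.41) and -0.33 for Sgce (0.22 and -0.11). Cdkn1c also had values of opposite sign (0.58 apart), but it was above background in 1 of 8 arrays and these carry no direction.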

How the results depend on the processing

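Within sets, 16 of 63 differences of the 9 genes were at least 2-fold, 15 after quantile normalization (Dlk1 with the EP4 antagonist of set 2 was then at -0.98) and 21 at a 1.5-fold mark; the largest move under quantile normalization was 0.16. Between sets, 7 were at least 2-fold, 6 after quantile normalization and 5 after centring on the median, with moves of up to 0.43. For the EP4 antagonist against GHMT, the count of clusters called stayed at 0 with the replicate block, quantile normalization, a trend and robust prior or the background filter; it was 1 to 25 when an array was left out (set 1: 21 if GHMT and 25 if the EP4 antagonist was omitted; set 2: 1 and 16, in that order), none of the 9 genes among them, with the lone array of an arm assumed to vary like the others, and 31 with quantile normalization and the replicate block together. For the inhibited against the active arm, the main count of 0 became 84 with the TTF set as a replicate block and 78 with quantile normalization as well; leaving out an array gave 0 to 3 without the block, and with the block 192 without GHMT replicate 1, 17 without diclofenac plus PGE2, 4 without EP4 antagonist replicate 1, 2 without diclofenac, and 0 if the GHMT or the EP4 antagonist array of set 2 was omitted. With an array of set 2 omitted, the block absorbs the lone array left there, so all of set 2 leaves the contrast. The cause of the other changes was not tested. The replicate block with quantile normalization or with an array left out was chosen after seeing the data. Leaving out an array with the block leaves no residual degrees of freedom for the EP4 antagonist alone, and as each of the 9 symbols has 1 cluster, no other cluster could be tried. Values near background (Cdkn1c) and near the top of the scale (Mest in set 1) limit what these arrays can show.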

Other observations

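Genes that keep imprints in place, such as the DNA methyltransferase Dnmt1, its partner Uhrf1 and the zinc finger genes Zfp57 and Zfp445, were measured for all 16 genes listed, 3 of them at background in all 8 arrays. None was 2-fold from GHMT of its set in any of the contrasts with 1 array each, beside 1.6% to 5.36% of all clusters. For 16 genes that is near the share of all clusters, so nothing is read from it. Limma called 0 in either comparison, with or without the set as a block (0 and 1 at an unadjusted p under 0.05 for the EP4 antagonist, 2 and 2 for the inhibited against the active arm). Dnmt1 had the largest difference, -0.99 with the TGFb inhibitor (8.07 against 9.06 with GHMT), and was at -0.70 and -0.33 with the EP4 antagonist in sets 1 and 2. Zfp57 was at 0.81 and 0.67 with the EP4 antagonist and at -0.93 with the TGFb inhibitor. Dnmt3a reached -0.84 with the TGFb inhibitor, Uhrf1 -0.82 and Zfp445 0.64 with the EP4 antagonist of set 1, and Ctcf -0.60 in the same array.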
